A study of Mus musculus with 8 samples.

Results

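Cd14 and 9 genes of Toll-like receptor sensing were followed in luminal progenitors (LP) and mature luminal cells of the mouse mammary gland. The members were the rows of the deposited count table whose Entrez Gene ID maps to Cd14, Ly96, Lbp, Tlr2, Tlr3, Tlr4, Tlr5, Myd88, Ticam1 or Tirap. All 10 were found among the 24594 genes listed. RNA came from freshly dissociated mammary glands of untreated wild type C57BL/6J virgin mice, and both fractions share this background. The study used mice of 12 to 20 weeks, and the labels give no age for single samples. The fractions were separated by flow cytometry, and 4 LP and 4 mature libraries were made after cDNA amplification from 500 pg of RNA. The labels do not say whether replicates came from separate animals. The paper's methods call its RNA-Seq replicates biological, but the number they give per condition differs from the 4 in each fraction here. The p-values therefore measure the spread between these samples.

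The labels name EpCAM, CD49f, cKit and CD14 as the surface markers of the sort, whereas the paper describes the 2 fractions of these libraries as high and low for c-Kit. Because the labels list CD14, the Cd14 difference is given as a description, with no test, and counts of members are given without it.

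CD14 is a surface protein that receives lipopolysaccharide (LPS), the outer membrane lipid of Gram-negative bacteria, from LBP and passes it to TLR4 with its partner MD-2, the product of Ly96. TLR4 signals from the plasma membrane through TIRAP and MYD88 and from endosomes through TICAM1 (TRIF). TLR2 recognizes bacterial lipopeptides, TLR5 flagellin and TLR3 double-stranded RNA. TLR2 and TLR5 depend on MYD88, while TLR3 signals through TICAM1 alone. In the mammary gland this pathway is known for the response of the epithelium to bacteria that enter the ducts and cause mastitis.

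The LP libraries held 5510863 to 7089597 counts and the mature libraries 4410049 to 7791593. Values are given as CPM, counts scaled to library size with edgeR's TMM factors, unless another scale is named. Adjusted p-values are from edgeR's quasi-likelihood test across all genes that passed the filter on low counts. All 6 mature luminal markers examined, Pgr and Esr1 among them, were higher in mature libraries, and of 3 LP markers that were not used in the sort, Elf5 and Ltf were higher in LP and Aldh1a3 was not called (adjusted p = 0.0512). Kit encodes the marker of the gates and is given as a description only. Mature replicate 3 stood nearest to LP on the first principal component. It held Kit at 27.2% and Elf5 at 51.6% of the LP mean, where the other mature libraries held 6.28% to 11.2% and 11.8% to 20.2%. Ltf and Aldh1a3 did not set it apart in this way. Ltf stood at 8.12% of the LP mean in mature replicate 3 and 7.4% in mature replicate 4. Aldh1a3 was highest in mature replicate 4, at 378 CPM against 354 CPM in mature replicate 3. In bulk samples a lower share of a cell type and less RNA per cell cannot be told apart.

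Of the 9 members other than Cd14, 4 were higher in LP at an adjusted p-value under 0.05 (edgeR's quasi-likelihood test), and none was lower. These were Lbp, Tlr3, Tlr4 and Myd88, of which Lbp passed the filter on low counts only through LP. Over all 12816 tested genes, 24.7% were called in either direction and 10.9% as higher in LP. All 10 members passed the filter on low counts. Of these 9 genes, 3 (Lbp, Tlr3 and Tlr4) had every LP library above every mature library, with a two-sided exact permutation p of 0.0286 each, the smallest that 4 against 4 libraries allow, before any adjustment. Over all tested genes, 29.5% did not overlap in either direction and 14% did not overlap with LP above. The median log2 fold change of the 9 genes was 1.24, against 0 over all tested genes. Ly96, Tlr2, Tlr5, Ticam1 and Tirap were not called.

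**Figure D1:**
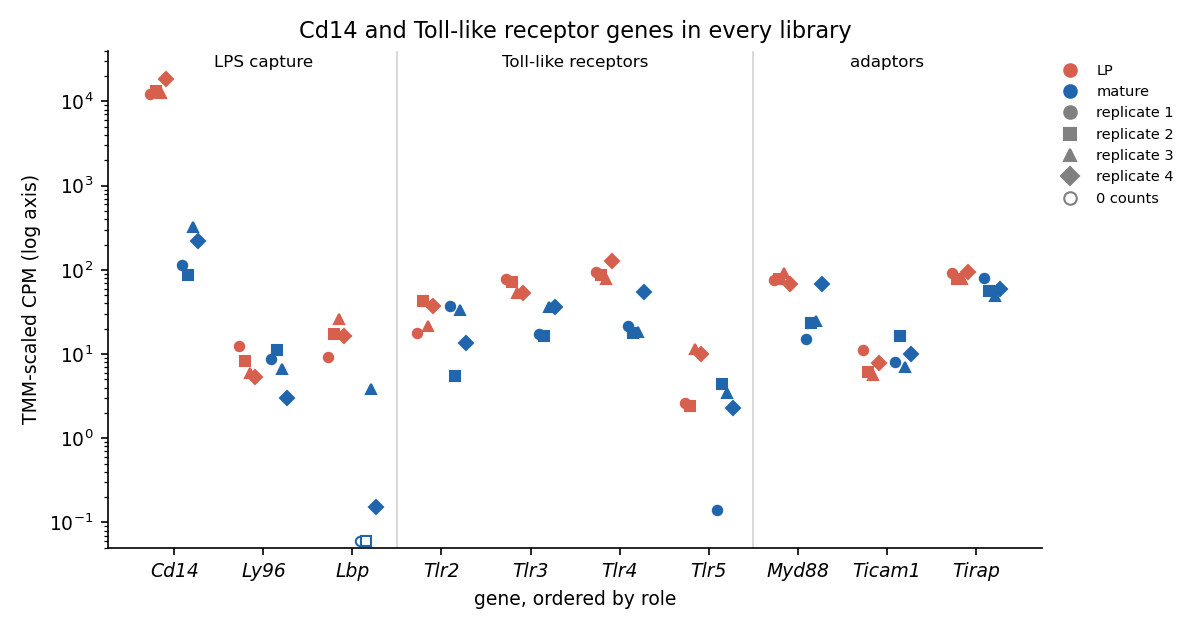
TMM-scaled CPM (log axis) of the 10 genes in each of the 4 LP and 4 mature libraries, with 1 point per library and open points at the foot of the axis for libraries with 0 counts. LP and mature points were apart for Cd14, Lbp, Tlr3 and Tlr4 and overlapped for the other 6 genes.

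**Figure D2:**
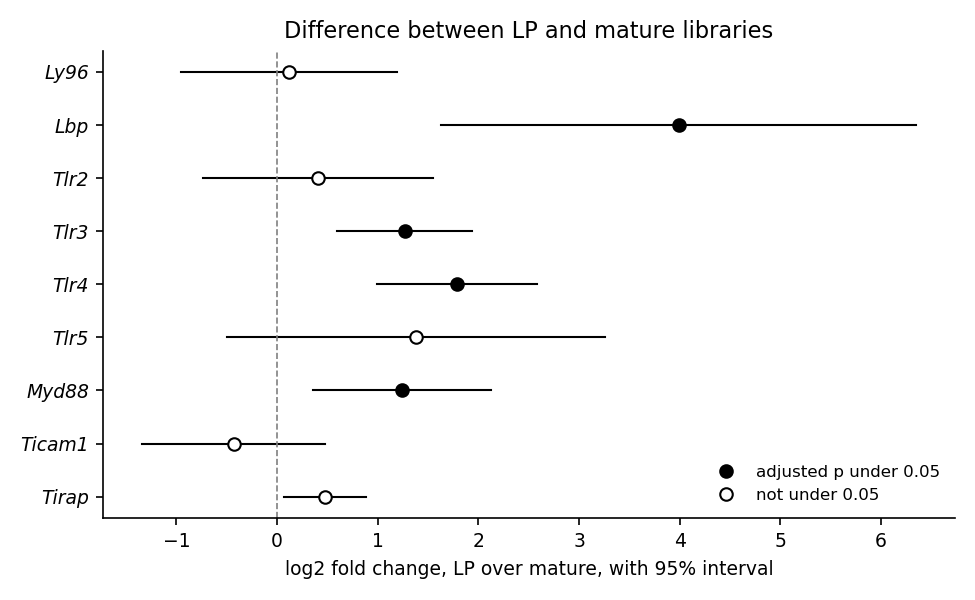
Log2 fold change of LP over mature for the 9 members other than Cd14, with 95% intervals that are not adjusted for the number of genes. Filled points had an adjusted p-value under 0.05. The interval of Tirap lay above 0 although its adjusted p-value was 0.0864.

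Among the genes of LPS capture, Cd14 (chromosome 18 of GRCm38 from 36725064 to 36726815) had 12142, 13345, 12540 and 18322 CPM in LP replicates 1 to 4. In mature replicates 1 to 4 it had 115, 85.9, 321 and 219 CPM. Cd14 was the 2nd most abundant gene of the LP libraries by mean CPM, taking 1.31% to 1.86% of all counts, and it ranked 1021 in mature libraries. The log2 fold change was 6.25 (standard error 0.475), the 21st largest of the tested genes. Mature replicate 3, which was highest for Kit and Elf5, was also highest for Cd14, but at 2.28% of the LP mean. The log2 fold change without it was 6.67.

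Lbp encodes the LPS-binding protein that delivers LPS to CD14 (chromosome 2 from 158306493 to 158332852). It had 9.15, 17.3, 26.4 and 16.4 CPM in LP, and 0, 0, 3.90 and 0.151 CPM in mature replicates 1 to 4. Every LP library was above every mature library, and 27 of the 28 mature counts came from mature replicate 3. LP exceeded mature cells by 3.99 ± 1.07 on the log2 scale (SE; adjusted p = 0.0202). Mature replicates 1 and 2 had no count, which allows up to 0.422 and 0.788 CPM. Without mature replicate 3, LP held 460 counts and mature cells 1, a ratio of 298 with a counting interval of 53.3 to 11800. Mature replicate 3 was picked for this after its count was seen, so the ratio is a description only. Its interval covers counting error only, while replicates differed beyond it. Without LP replicate 3, the highest LP library, the adjusted p-value was 0.0561. Lbp passed the filter on low counts through its LP libraries alone, and it was not tested where 10 counts were required of every library.

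Ly96 (chromosome 1 from 16688456 to 16709605), whose product MD-2 holds LPS in the TLR4 complex, did not follow Cd14 and Lbp. It had 12.3, 8.34, 5.98 and 5.41 CPM in LP and 8.72, 11.3, 6.64 and 3.01 CPM in mature replicates 1 to 4. The fractions overlapped between 5.41 and 11.3 CPM. The log2 fold change was 0.12 (adjusted p = 0.885), with a 95% interval from a fold of 0.517 to one of 2.29, a range that includes a 2-fold difference with LP higher.

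Of the receptors, Tlr3 and Tlr4 were higher in LP and Tlr2 and Tlr5 were not called, and differences between the receptors' fold changes were not tested. Tlr4 (chromosome 4 from 66827551 to 66846581), the LPS receptor, had 94.2, 86.3, 77.2 and 129 CPM in LP and 21.4, 17.9, 18.2 and 54.1 CPM in mature libraries. All LP values exceeded all mature values, and mature replicate 4 lay apart from the other mature libraries. LP exceeded mature cells by 1.79 ± 0.361 on the log2 scale (SE; adjusted p = 0.00551), a 3.45-fold difference. It was 2.36 without mature replicate 4 and 1.65 without mature replicate 3.

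Tlr3 (chromosome 8 from 45395665 to 45411075), the endosomal receptor of double-stranded RNA, had 77.5, 71.9, 53.3 and 52.9 CPM in LP. In mature replicates 1 to 4 it had 17.2, 16.3, 36.2 and 36.0 CPM. The fractions did not overlap, and in mature cells replicates 3 and 4 were above replicates 1 and 2. LP exceeded mature cells by 1.27 ± 0.302 on the log2 scale (SE; adjusted p = 0.0121), a 2.41-fold difference.

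Tlr2 (chromosome 3 from 83836272 to 83841824) varied more within the fractions than between them. It ranged from 17.6 to 42.3 CPM in LP and from 5.52 to 36.8 CPM in mature libraries, with mature replicates 1 and 3 above LP replicates 1 and 3. The log2 fold change was 0.41 (adjusted p = 0.609), and the 95% interval ran from a fold of 0.601 to 2.92. Tlr5 (chromosome 1 from 182954752 to 182976044) had 2.61, 2.44, 11.5 and 10.1 CPM in LP and 0.141, 4.47, 3.46 and 2.26 CPM in mature libraries. LP replicates 3 and 4 were above all mature libraries, and LP replicates 1 and 2 lay within their range. Its log2 fold change of 1.38 had a standard error of 0.849 (adjusted p = 0.265).

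Of the adaptors, Myd88 (chromosome 9 from 119335934 to 119340018), which serves every receptor here but TLR3, had 75.8, 77.5, 91.8 and 68.0 CPM in LP. In mature replicates 1 to 4 it had 14.9, 23.4, 24.7 and 68.9 CPM. Mature replicate 4 exceeded the lowest LP library and the other 3 mature libraries were below all LP libraries. LP exceeded mature cells by 1.24 ± 0.401 on the log2 scale (SE; adjusted p = 0.0439). The call was lost when any 1 library other than mature replicate 4 was left out (adjusted p between 0.0701 and 0.106), and without mature replicate 4 the log2 fold change was 1.93 (adjusted p = 0.00135). Mature replicate 4 was likewise the highest mature library for Tlr4. In one annotation 11.3% of the Myd88 exon length overlaps Acaa1a, a gene on the other strand that was also higher in LP (log2 fold change 0.77, adjusted p = 0.00773), and without strand their reads could not be told apart there.

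Tirap (chromosome 9 from 35184391 to 35200291), the bridging adaptor that brings MYD88 to TLR2 and TLR4, had 77.9 to 93.2 CPM in LP and 48.7 to 81.0 CPM in mature libraries. Only mature replicate 1 overlapped the LP range. LP exceeded mature cells by 0.47 ± 0.185 on the log2 scale (SE; adjusted p = 0.0864), and without mature replicate 1 it was 0.66 (adjusted p = 0.0237). That was the 1 fit of 15 alternatives that called Tirap, and other fits without 1 library gave adjusted p-values up to 0.185. Ticam1 (chromosome 17 from 56269462 to 56276767), the adaptor of TLR3 and of endosomal TLR4, was the only member with a negative log2 fold change. It had 11.2, 6.18, 5.64 and 7.77 CPM in LP and 8.16, 16.5, 6.93 and 10.1 CPM in mature libraries, which overlapped. The log2 fold change was -0.43 (adjusted p = 0.487), and its 95% interval ran from a fold of 0.395 to 1.40. Tlr3 was thus called and its adaptor was not, and whether their fold changes differ was not tested.

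**Figure D3:**
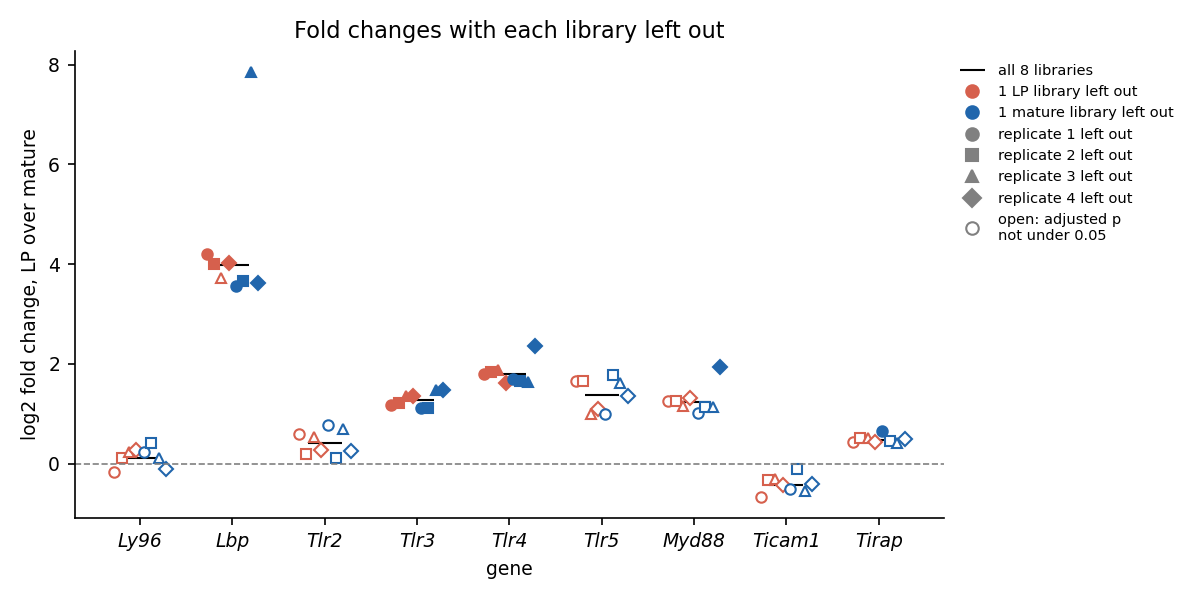
Log2 fold change of LP over mature for the 9 members other than Cd14 with all 8 libraries (bars) and with each library left out in turn (points, marker by replicate, open where the adjusted p-value was not under 0.05). Tlr3 and Tlr4 stayed filled in all 8 fits, Lbp in 7 and Myd88 in 1.

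The 250 bases before an annotated start of 4 members are shown, 2 that were called (Tlr3 and Myd88) and 2 that were not (Tlr2 and Ticam1). The Myd88 and Ticam1 windows adjoin the end of the gene positions given above. The Tlr3 window lies wholly inside its gene span and the Tlr2 window mostly inside its own, so the windows are not alike. Sequences are from RefSeq, build GRCm38.p6, whose table held 6 of the 10 members. Capitals mark matches on either strand to the motifs of NF-kB (a consensus of 10 letters), the interferon-stimulated response element (ISRE, GAAA and GAAA with any 2 bases between), AP-1 (TGANTCA), ETS factors (GGAAGT) or the TATA box (TATAAA).
Myd88 (chr9:119340019-119340268, minus strand): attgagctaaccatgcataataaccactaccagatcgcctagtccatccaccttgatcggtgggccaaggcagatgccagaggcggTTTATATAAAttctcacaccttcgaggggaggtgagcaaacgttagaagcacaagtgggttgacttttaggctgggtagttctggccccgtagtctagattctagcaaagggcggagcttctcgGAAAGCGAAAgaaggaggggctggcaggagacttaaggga
Tlr3 (chr8:45410381-45410630, minus strand): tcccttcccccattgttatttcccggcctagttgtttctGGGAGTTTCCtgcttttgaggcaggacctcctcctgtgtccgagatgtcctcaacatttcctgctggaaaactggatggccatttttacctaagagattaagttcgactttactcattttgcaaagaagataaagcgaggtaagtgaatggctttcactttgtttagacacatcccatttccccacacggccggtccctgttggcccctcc
Tlr2 (chr3:83841609-83841858, minus strand): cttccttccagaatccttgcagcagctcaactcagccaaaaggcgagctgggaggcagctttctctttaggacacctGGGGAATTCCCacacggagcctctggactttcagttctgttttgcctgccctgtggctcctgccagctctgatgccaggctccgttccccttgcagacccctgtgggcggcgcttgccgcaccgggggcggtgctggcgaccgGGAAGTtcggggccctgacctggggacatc
Ticam1 (chr17:56276768-56277017, minus strand): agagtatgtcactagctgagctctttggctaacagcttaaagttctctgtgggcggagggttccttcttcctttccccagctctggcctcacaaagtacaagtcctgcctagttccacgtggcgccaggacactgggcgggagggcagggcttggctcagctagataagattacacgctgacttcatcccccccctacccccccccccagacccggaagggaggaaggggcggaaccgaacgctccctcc
Myd88 held an ISRE match that begins 40 bases before the start and 2 overlapping TATA matches. Tlr3 held an NF-kB match, and Tlr2 held 2 NF-kB matches that overlap each other and 1 ETS match. Ticam1 held none of the 5. Of 32841 promoters of this length, 2.98% held an ISRE match, 7.25% an NF-kB match, 6.75% an AP-1 match, 19.7% an ETS match and 12.4% a TATA match. Among the members shown, an NF-kB match was thus present in 1 called and 1 uncalled member, both with windows that reach into the gene span. Windows of Tlr5 and Tirap, also uncalled, were searched but are not shown, and they held none of the 5. These matches describe letters in the windows only.

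To compare different genes, counts were also divided by exon length, giving RPKM. In LP, Cd14 stood at 8134 ± 1656 RPKM (SD, n = 4), far above Myd88 at 30.4 ± 3.86. Tlr4 (17.4 ± 4.07) and Tirap (17.3 ± 1.69) followed and overlapped each other. Tlr3 (12.3), Tlr2 (9.84), Ly96 (7.85), Lbp (3.58), Ticam1 (2.57) and Tlr5 (1.39) came next, each overlapping its neighbour in this order. In mature cells Cd14 was again first, at 107 ± 61.8 RPKM (SD, n = 4), followed by Myd88 (12.8), Tirap (12.5), Tlr2 (7.37), Ly96 (7.26), Tlr3 (5.07), Tlr4 (5.02) and Ticam1 (3.49). These 7 genes after Cd14 overlapped their neighbours, and Tlr5 (0.539) and Lbp (0.210) were lowest. By mean RPKM on this exon length, Tlr4 was thus 3rd in LP and 7th in mature cells. It overlapped Tirap in LP and Tlr3 in mature cells, so these ranks are not settled. The ratio of Tlr4 to Ly96 RPKM was 1.40 to 4.38 in LP and 0.291 to 3.30 in mature libraries, which overlapped because mature replicate 4 was at 3.30 (two-sided exact permutation test, p = 0.114, n = 4 in each fraction).

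The other Toll-like receptor genes were at or near 0. Tlr7, Tlr9, Tlr11, Tlr12 and Tlr13 had no count in any library, which allows up to 0.0582 CPM over all 8 libraries. Tlr1 had 1 count in each of 3 LP libraries, Tlr6 had 21 counts in LP replicate 3 alone, and Tlr8 had 16 counts in mature replicate 3, 2 in mature replicate 4 and 1 in LP replicate 3. Tlr1 and Tlr6, which pair with TLR2, are similar in sequence, and 15.2% and 12.1% of their 51-base words also occur in other transcripts, so reads could be split between them. In the list of 14 further receptors and chaperones, 4 genes were tested and none was called. One of them was Cd180, a TLR4-like receptor, at 16.2 to 28.7 CPM in LP and 15.2 to 23.5 CPM in mature libraries. Tril, which encodes a TLR4 and TLR3 accessory protein, was singled out after its values were seen. It had 5, 95, 26 and 58 counts in LP and none in mature libraries, and the filter on low counts left it untested. The pooled LP level was 55.5 times the limit of 3 counts over the mature group, 0.123 CPM. LP replicate 1 alone had only 0.726 CPM. In GENCODE, Tril exons overlap the noncoding gene Gm16499 on the other strand, and 19.8% of its 51-base words also occur in other transcripts.

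Leukocytes also express Cd14 and Toll-like receptors, and the sort stained for CD45, CD31 and TER-119. Tyrobp, C1qa and Cd3e had no count in any library, Ptprc had 2 counts in LP and 1 in mature libraries, and Lyz2 had at most 4 in a library. Of 19 leukocyte markers, 5 were tested and none was called. All 5 had a positive log2 fold change, with a median of 0.95. Adgre1, the F4/80 gene, had 1 to 13 counts a library and Csf1r had 2.91 to 7.47 CPM in LP and 3.18 to 4.92 CPM in mature libraries. The summed level of the list was 149 to 179 CPM in LP and 94.2 to 129 CPM in mature libraries, most of it from Cx3cr1, Cd68 and Cd163. Markers of basal cells summed to 17.5 to 49.6 CPM in LP and 15.3 to 75.8 CPM in mature libraries, and those of stromal and endothelial cells to 10.4 to 44.7 and 28.5 to 180 CPM. None of the tested markers in these lists was called, and their part in the results was not tested.

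**Figure D4:**
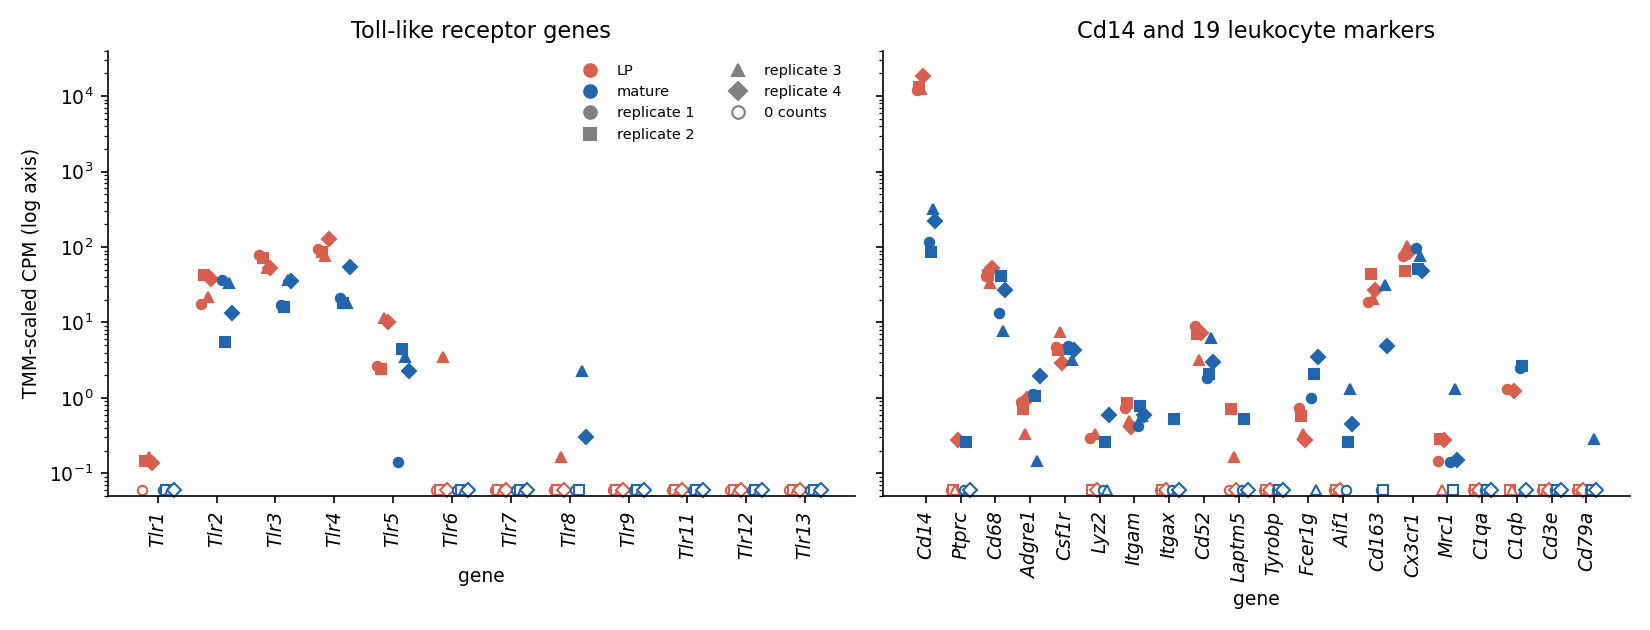
TMM-scaled CPM (log axis) in each of the 8 libraries for the 12 Toll-like receptor genes (left) and for Cd14 beside 19 leukocyte markers (right), with open points for 0 counts. Tlr2, Tlr3, Tlr4 and Tlr5 had counts in every library, and Tyrobp, C1qa and Cd3e in none.

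Counting the list of further receptors and chaperones, 8 pathway lists with 96 genes were read from the same fit. Of the 68 genes tested, 11 were higher in LP and 7 in mature cells, together 26.5%, a share near the 24.7% of all tested genes. Among 17 proximal kinases and ubiquitin ligases, all tested, 1 was higher in LP and 1 in mature cells, and the list's median log2 fold change was -0.21. Irak4, the kinase that MYD88 recruits first, had 226 to 307 CPM in LP and 155 to 173 CPM in mature libraries, which did not overlap. The difference was 0.81 ± 0.150 on the log2 scale (SE; adjusted p = 0.00355). Peli1, a ubiquitin ligase of this step, was higher in mature cells with a log2 fold change of -0.54 (adjusted p = 0.0383), a call that was lost in 10 of 15 alternatives, the replicate block (adjusted p = 0.0691) and 7 of the 8 fits without 1 library among them.

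The receptors of the IL-1 family, which share MYD88 with the Toll-like receptors, changed in both directions. Il1rap, the shared accessory chain of the IL-1 and IL-33 receptors, had 30.0 to 41.2 CPM in LP and 1.51 to 13.7 CPM in mature libraries (log2 fold change 2.49, adjusted p = 0.0134), and without mature replicate 3 the value was 3.28. Il18r1, a chain of the IL-18 receptor, had 4.48 to 10.5 CPM in LP and 12.7 to 99.8 CPM in mature libraries, lowest in mature replicate 3. Its log2 fold change was -3.27 (adjusted p = 0.00236). The other 2 genes tested of the 6 listed were not called.

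Of the 5 interferon regulatory factors, 1 was higher in LP and 2 in mature cells. Irf7, which drives type I interferon genes, had 110 to 184 CPM in LP and 1.58 to 26.8 CPM in mature libraries (log2 fold change 3.29, adjusted p = 0.00217), and without mature replicate 4 the value was 3.90. Irf1 was higher in mature cells, at 73.6 to 189 CPM against 34.1 to 47.3 CPM (log2 fold change -1.70, adjusted p = 0.00248). Irf8 had 0 to 1.16 CPM in LP and 1.97 to 15.2 CPM in mature cells (log2 fold change -4.09, adjusted p = 0.0193). That call was lost with the replicate block (adjusted p = 0.0514) and without LP replicate 1, LP replicate 4 or mature replicate 2 (adjusted p of 0.0607, 0.0608 and 0.0673), and without LP replicate 3 its log2 fold change was -5.77. Irf8 passed the filter on low counts through mature libraries alone, and neither Irf8 nor Irf7 was tested where 10 counts were required of every library. Irf3, which acts after TICAM1, was not called (log2 fold change 0.63, adjusted p = 0.0547), although every LP library was above every mature library.

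Of 12 negative regulators, 9 were tested and Tnfaip3 alone was called. Tnfaip3, which encodes the deubiquitinase A20, had 6.47 to 10.6 CPM in LP and 12.4 to 36.5 CPM in mature libraries (log2 fold change -1.51, adjusted p = 0.0128). Of 18 genes that the pathway can induce, 13 were tested, 2 were higher in LP and 1 in mature cells, with a median log2 fold change of -0.54. Lcn2, which encodes an iron-scavenging antibacterial protein, had 861 to 902 CPM in LP and 53.4 to 261 CPM in mature libraries (log2 fold change 2.78, adjusted p = 0.00149). Cxcl5, a neutrophil chemokine, had 9.99 to 16.4 CPM in LP and 3.62 to 5.34 CPM in mature libraries (log2 fold change 1.51, adjusted p = 0.0107). Ifnb1, interferon beta, had 0 to 0.581 CPM in LP and 8.44, 6.04, 36.8 and 5.57 CPM in mature replicates 1 to 4 (log2 fold change -5.90, adjusted p = 0.00280). Without mature replicate 3 the log2 fold change of Ifnb1 was -4.78 and that of Lcn2 was 3.42, and without LP replicate 1 that of Ifnb1 was -6.91. Ifnb1 had 4, 2, 0 and 0 counts in LP, passed the filter through mature libraries alone, and was not tested where 10 counts were required of every library. Cxcl1, Cxcl2, Tnf, Ptgs2 and Nfkbiz were tested and not called.

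Among 17 cytosolic sensors and their partners, 14 were tested, 6 were higher in LP and 1 in mature cells, with a median log2 fold change of 0.83. Dhx58 and Zbp1, sensors of viral nucleic acid, had log2 fold changes of 2.85 (adjusted p = 0.0140) and 2.43 (adjusted p = 0.000742). Dhx58 had 1 count in mature replicate 3 and was not tested where 10 counts were required of every library. Casp1, the inflammasome protease, had 12.6 to 32.6 CPM in LP and 3.66 to 11.8 CPM in mature libraries (log2 fold change 1.61, adjusted p = 0.0261), and its call was lost without LP replicate 2 or 4 or mature replicate 1 or 4 (adjusted p between 0.0537 and 0.0851). Ripk2, the kinase of the NOD receptors, was the 1 gene higher in mature cells, which was singled out after its values were seen (log2 fold change -1.28, adjusted p = 0.0279). Without LP replicate 1, 3 or 4 or mature replicate 1 or 4 it was not called (adjusted p between 0.0515 and 0.0713). Of 7 genes that handle LPS and peptidoglycan, 2 were tested and none was called.

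**Figure D5:**
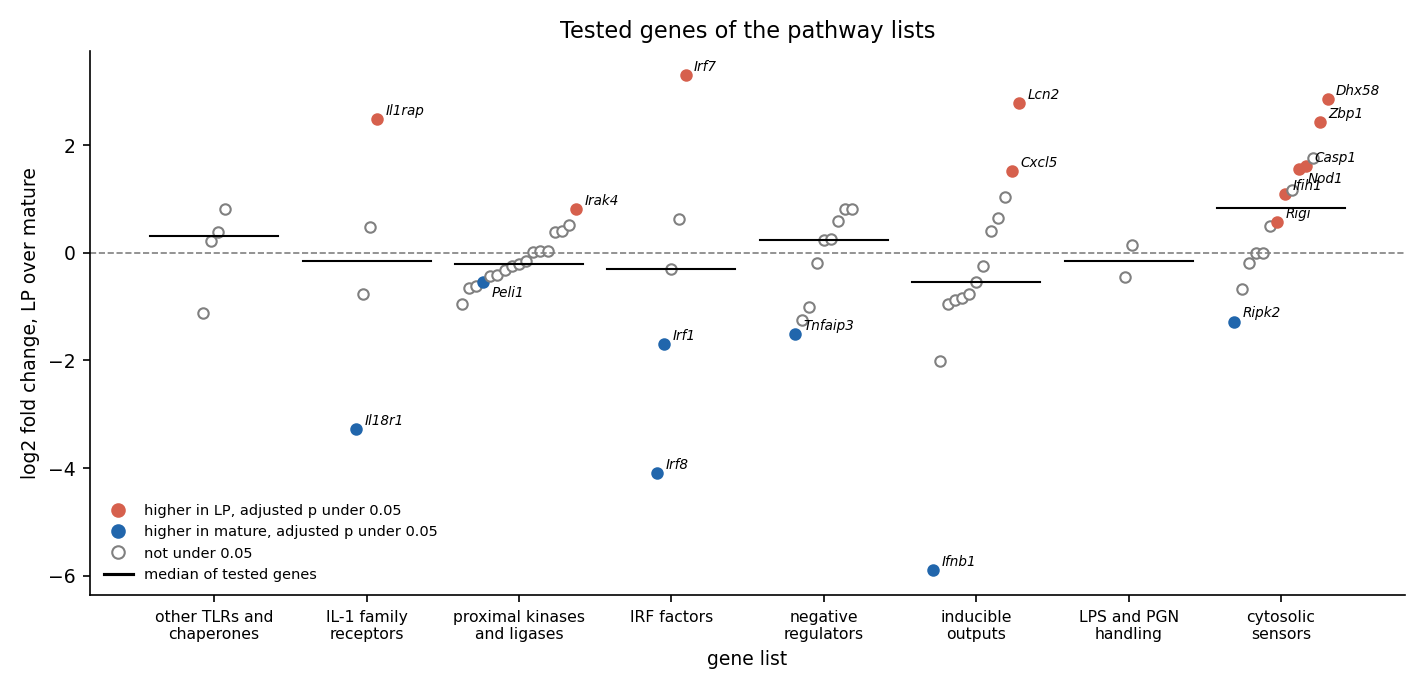
Log2 fold change of LP over mature for each tested gene of the 8 lists, 1 point per gene, with called genes filled and named and bars at each list's median. Il18r1, Irf8 and Ifnb1 lay lowest and Irf7 highest.

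The genes whose pattern over the 8 libraries lay nearest to Cd14 were sought among all tested genes, as the root mean square difference of log2(CPM + 0.5) after centring each gene on its own mean. Klk13, a kallikrein protease, was nearest at 0.439, with 48.0 ± 11.6 CPM in LP and 0.187 ± 0.286 CPM in mature libraries (SD, n = 4). Rhoj (0.830), a small GTPase, Ptafr (0.851), the receptor of platelet-activating factor, and Adora1 (0.862), an adenosine receptor, were also among the 5 nearest. The mean CPM of these 3 in LP ran from 23.9 for Ptafr to 633 for Rhoj, against 14087 ± 2867 for Cd14 (SD, n = 4). Klk13, Ptafr (mature mean 0.254 CPM) and Adora1 (mature mean 0.943 CPM) passed the filter on low counts only through LP. The mature means of Klk13 and Ptafr were below the added 0.5, so this offset sets part of their distance. The fitted log2 fold change of Klk13 was 7.75, against 6.25 for Cd14.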

How the data were processed

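Single-end reads of 51 bp were trimmed by the authors with cutadapt (4.2 in the submitters' processing notes) and aligned to mm10 with Bowtie2 (2.3.5.1 in those notes), which does not split reads across introns. The deposited table held raw counts per Entrez Gene ID with no normalization. The counting program, its annotation and its use of strand were not given in the sources used here. Symbols and gene positions came from RefSeq (GRCm38.p6), and 24570 of 24594 IDs matched. Exon lengths came from GENCODE M21 on the same build, since the RefSeq table used held no exons.

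Counts were analysed with edgeR 4.0.16 in R 4.3.3 (TMM factors, filterByExpr by fraction, quasi-likelihood F-test, Benjamini-Hochberg adjustment across 12816 genes). Each standard error was the absolute log2 fold change divided by the square root of F. The exact permutation test used all 70 assignments of the 8 libraries on log2(CPM + 0.5), and its smallest two-sided p was 0.0286. Alternatives were RLE and upper-quartile factors, DESeq2 1.42.0, the likelihood ratio test, other filters, a replicate block and leaving out each library. Replicates differed beyond counting noise in all 12 pairs of libraries (chi-square per degree of freedom of 11.95 to 89.0). Intervals and limits from counts cover counting error only.

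The named genes were every member, up to 3 called genes with the largest change in each list, defining markers of the cell types, and the 5 genes nearest to Cd14, of which 1 is not reported here. Other list genes that the text names, such as Ripk2, Tril, Cd180, Irf3, Hsp90b1, Cx3cr1 and the uncalled chemokines, were chosen after their values were seen. The members and lists were chosen with earlier results of these data known. In GENCODE, exons of Myd88 overlap Acaa1a on the other strand over 290 bases, while in RefSeq 1009 bases lie between them. Exons of Tlr3 and Tirap overlap noncoding antisense genes over 7.32% and 9.05% of their length. Without strand, reads of such pairs cannot be told apart.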

Additional observations from a re-analysis of the deposited data

Results flagged for a closer look

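Of 56 groups of 4 libraries examined for the members and the called list genes, 7 held a library whose gap to the nearest other exceeded Dixon's 95% critical value. Chance would give 2.8 for independent normal values. These groups share libraries and some hold few counts, so no excess is read from this. Lbp had 3.90 CPM in mature replicate 3 against 0 to 0.151 CPM in the other mature libraries. Tlr4 had 54.1 CPM in mature replicate 4 against 17.9 to 21.4 CPM. Mature replicate 3 was also far from the others for Ifnb1, with 36.8 CPM against 5.57 to 8.44 CPM, and for Peli1, with 141 CPM against 111 to 115 CPM. In LP replicate 3, Irak4 had 226 CPM against 299 to 307 CPM and Irf8 had 1.16 CPM against 0 to 0.145 CPM. Irf7 had 184 CPM in LP replicate 1 against 110 to 122 CPM. Mature replicate 3 and LP replicate 3, which carry the same number, account for 5 of the 7, and the causes were not tested.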

How the results depend on the processing

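The number of genes called over the whole table, 3161, was 2917 to 3791 in the other fits with all 8 libraries and 2338 to 3414 with 1 library left out. Of the 9 members other than Cd14, 4 were called. This count was 2 to 4 with 1 library left out (3 to 5 with Cd14 counted), lowest without LP replicate 3 (2, or 3 with Cd14), where Lbp and Myd88 were not called. It was 3 where 10 counts were required of every library, which left Lbp and Tlr5 untested. Over the same fits Lbp ran on the log2 scale from 3.57 to 7.85, that of Myd88 from 1.01 to 1.93 and that of Tirap from 0.41 to 0.66. Tlr3 and Tlr4 were called in all 15 alternatives, with log2 fold changes of 1.11 to 1.48 and 1.62 to 2.36. No direction turned past the threshold. Ly96, not called in any fit, was between -0.16 and 0.41. The 18 called genes of the pathway lists numbered 14 to 20 with 1 library left out, and those higher in mature cells fell from 7 to 4 without LP replicate 1. Of 266 values of these genes under the alternatives, 25 lost the call and none reversed.

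The labels' descriptions give both fractions of a replicate number a common leading number without saying what it marks. Libraries with the same number were compared after subtraction of the fraction means. Their deviations correlated at 0.117, 0.0634, 0.153 and 0.0839 for numbers 1 to 4, not all over 0.1, and each LP library correlated best with its own number, which is a hint from the data and not the design. With the replicate block 3027 genes and 4 of these 9 members were called, with log2 fold changes of 5.26 for Lbp, 1.34 for Tlr3, 1.93 for Tlr4 and 1.49 for Myd88, and it changed no member's call. Of the list genes, Irf8 and Peli1 lost their call and 4 gained one, Cnpy3 as higher in LP and Irak2, Tifa and Saa3 as higher in mature cells, so that 20 were called. Scaled to the longest transcript in place of all exons, Ly96 stood at 11.1 RPKM in mature cells, Lbp at 6.85 and Tlr4 at 23.7 in LP. The widest intervals among the 9 members were those of Lbp and Tlr5. Scaling moved the median log2 fold change of all tested genes by at most 0.033 in fits with all 8 libraries.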

Other observations

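Some genes of the leukocyte list had counts in libraries in which Ptprc and Tyrobp were at or near 0. Cx3cr1, the fractalkine receptor gene, had 48.6 to 103 CPM in LP and 47.8 to 98.4 CPM in mature libraries, and Cd68, a lysosomal glycoprotein gene, had 33.7 to 52.4 CPM and 7.65 to 40.7 CPM. Cd163, a haemoglobin scavenger receptor gene, had 18.4 to 43.4 CPM in LP, no count in mature replicates 1 and 2, and 31.5 and 4.82 CPM in mature replicates 3 and 4. None of the 3 was called.

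Hsp90b1, the chaperone that folds Toll-like receptors, had 5767 to 10476 counts in LP and 6592 to 24393 counts in mature libraries, with a log2 fold change of -1.12 (adjusted p = 0.109). Unc93b1, which carries endosomal receptors including TLR3, had a log2 fold change of 0.22 (adjusted p = 0.543).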
